A study of Mus musculus with 18 samples.

Results

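The interferon response genes described here are 33 named mouse genes, 33 of 55487 gene rows in the deposited count tables, chosen by name as genes that type I interferon or viral RNA is known to induce. The choice was made with earlier results of these data known, so counts of members called are descriptions. They comprise 1 chemokine, 5 sensors of nucleic acid, 5 genes around double-stranded RNA, 4 transcription factors, 11 antiviral effectors, 3 genes of the ISG15 system or its surroundings and 4 genes of the PARP and DTX3L family. They were measured by poly(A)-selected RNA-seq in alphaTC1 cells, a glucagon-producing mouse pancreatic alpha cell line from a tumour driven by SV40 large T antigen. In a first experiment, cells transduced with an shRNA against Smndc1 (shSmndc1, 3 libraries) were set against empty-vector cells (EV, 3 libraries), 5 days after transduction. In a second experiment every culture also received RIP-mCherry, a red fluorescent reporter under the rat insulin promoter, and knockdown cells were sorted into reporter-positive (4 libraries) and reporter-negative cells (4 libraries), with reporter-carrying empty-vector cells (EV RIP, 4 libraries) as the control. The labels give no time point for the second experiment and do not say whether the EV RIP cells went through the sorter. All 5 groups therefore carried a viral vector, and an untransduced group was not analysed here. The labels do not state whether replicates are separate cultures; each p-value is therefore relative to a spread among libraries that could be technical.

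Smndc1 encodes SMNDC1 (SPF30), a Tudor-domain spliceosome protein, and its own RNA was reduced in 2 of the 3 knockdown groups. It had 10.4, 9.52 and 10.5 CPM (counts scaled to a common library size) in shSmndc1 cells, against 41.8, 40.2 and 35.1 CPM in EV cells (log2 fold change -1.94, SE 0.13, adjusted p = 0.00145 by edgeR's quasi-likelihood test). Reporter-positive cells had 16.6, 22.4, 16 and 25.2 CPM and the libraries labelled reporter-negative 23.8, 43.4, 36.3 and 44.5 CPM, against 37.6, 54.9, 39.2 and 46.2 CPM in EV RIP cells. The fall passed the test in reporter-positive cells (-1.15, SE 0.20, adjusted p = 0.00384). It did not in the libraries labelled reporter-negative (-0.27, SE 0.20, adjusted p = 0.378), where libraries 1 and 3 were below every EV RIP library and libraries 2 and 4 were not. In bulk libraries, fewer cells with a transcript and less of it per cell cannot be told apart, so a mixed knockdown and a weak one look alike here. Glucagon (Gcg), the defining alpha cell transcript, was abundant in every library, with 6290 to 8560 CPM in shSmndc1 and 3770 to 6850 CPM in EV cells, and 14400 to 19400 CPM in reporter-positive and 7660 to 12000 CPM in reporter-negative libraries, against 6380 to 11000 CPM in EV RIP cells.

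Cells detect viral or misplaced RNA with cytosolic helicases such as RIG-I and MDA5, which signal through MAVS to IRF3, IRF7 and NF-kB and switch on type I interferon genes. Secreted interferon binds the IFNAR receptor, and a complex that includes STAT2 and IRF9 then activates genes that carry an interferon-stimulated response element (ISRE). Some of these genes, Cxcl10 among them, also answer to NF-kB, and in pancreatic islets interferon signatures and CXCL10 are known from insulitis and viral infection.

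RefSeq promoters (GRCm38.p6, 250 bases before to 50 bases after each start) were at hand for 25 of the 33 members. Those of Parp14, Mx1, Mx2, Parp9, Dhx58, Zbp1, Usp18 and Rtp4 were not used here. The core letters GAAANNGAA or, on the other strand, TTCNNTTTC were in 14 of the 25 (56.0%), against 9.76% of 27025 genes. The 14 were Adar, Bst2, Cxcl10, Ddx58, Eif2ak2, Ifi44, Ifih1, Ifit1, Ifit3, Isg15, Oas1a, Rsad2, Stat2 and Trim25. They include members that rose with the knockdown, members close to 0 in every group and a member that fell. The palindromic core TTCNNNGAA, known from interferon gamma response elements, was in 7 of 25 (28.0%) against 9.55% of genes. An NF-kB core, GGGANNTTC or its reverse GAANNTCCC, searched after the calls of NF-kB targets were seen, was in 4 of 25 (Cxcl10, Dtx3l, Ifit2 and Tlr3; 16%) against 4.47% of genes. Matches were counted on both strands, also where matches of one motif or of different motifs overlap, and a match is a description of letters, not a site shown to be bound.

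Cxcl10 and Rsad2 were called higher in both sorted groups, Rsad2 without a call at day 5. Isg15 and Ifit1 had at most 35 counts in any group. The 250 bases before the start of these 4 members are shown. Each runs 5′ to 3′ on the gene's strand, with the ISRE core and, in Cxcl10, the NF-kB core in capitals.
Cxcl10, chr5:92348890-92349139, minus strand: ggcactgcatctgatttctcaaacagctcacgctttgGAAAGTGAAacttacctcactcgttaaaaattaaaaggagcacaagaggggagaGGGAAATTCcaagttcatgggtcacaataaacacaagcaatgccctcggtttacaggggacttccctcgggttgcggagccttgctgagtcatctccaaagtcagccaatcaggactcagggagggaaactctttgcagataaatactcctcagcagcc
Rsad2, chr12:26456453-26456702, minus strand: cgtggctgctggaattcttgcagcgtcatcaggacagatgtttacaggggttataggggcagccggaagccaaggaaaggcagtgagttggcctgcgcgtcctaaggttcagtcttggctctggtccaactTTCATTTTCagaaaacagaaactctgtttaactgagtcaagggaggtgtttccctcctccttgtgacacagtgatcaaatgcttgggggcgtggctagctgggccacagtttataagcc
Isg15, chr4:156200819-156201068, minus strand: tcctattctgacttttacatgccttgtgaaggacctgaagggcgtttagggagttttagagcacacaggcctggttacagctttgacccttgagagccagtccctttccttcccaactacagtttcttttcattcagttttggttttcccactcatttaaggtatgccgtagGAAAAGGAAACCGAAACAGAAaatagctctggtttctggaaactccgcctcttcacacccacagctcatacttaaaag
Ifit1, chr19:34640639-34640888, plus strand: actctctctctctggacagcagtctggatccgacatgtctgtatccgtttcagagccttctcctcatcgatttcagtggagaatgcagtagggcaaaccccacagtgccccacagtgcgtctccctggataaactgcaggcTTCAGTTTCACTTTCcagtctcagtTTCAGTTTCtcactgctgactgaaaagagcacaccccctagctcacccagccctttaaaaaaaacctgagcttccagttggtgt
Cxcl10 has 1 ISRE core, 213 bases before the start, and 1 match to the NF-kB core letters, 159 bases before it. Other forms of NF-kB sites, which these letters cannot match, were not searched, so more may lie in the printed stretch. Rsad2 has 1 ISRE core, at 119 bases, while Isg15 and Ifit1 have 3 each, some of them overlapping, at 78, 72 and 66 bases in Isg15 and at 109, 103 and 84 bases in Ifit1.

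Nearly the whole pathway was transcribed at low levels in these cells, and 9 members stayed close to 0 in all 5 groups. On the authors' FPKM scale, which is per kilobase of transcript, Adar (22.5 ± 1.29 in shSmndc1 and 17.7 ± 0.50 in EV cells, SD, n = 3 each) and Trim25 (15.2 ± 1.46 in shSmndc1 and 22.1 ± 0.72 in EV cells) were the highest members of the first experiment. Ifi35 and Eif2ak2 came next in the first experiment, with 13.8 ± 1.12 and 8.92 ± 2.37 FPKM in shSmndc1 cells and 13.5 ± 1.05 and 9.94 ± 0.83 FPKM in EV cells. Every other member averaged below 8 FPKM there. In EV cells Cxcl10 had 0.030 ± 0.039 FPKM and Parp14 0.023 ± 0.015 FPKM, so both members that rose at day 5 were almost silent in the control.

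**Figure D1:**
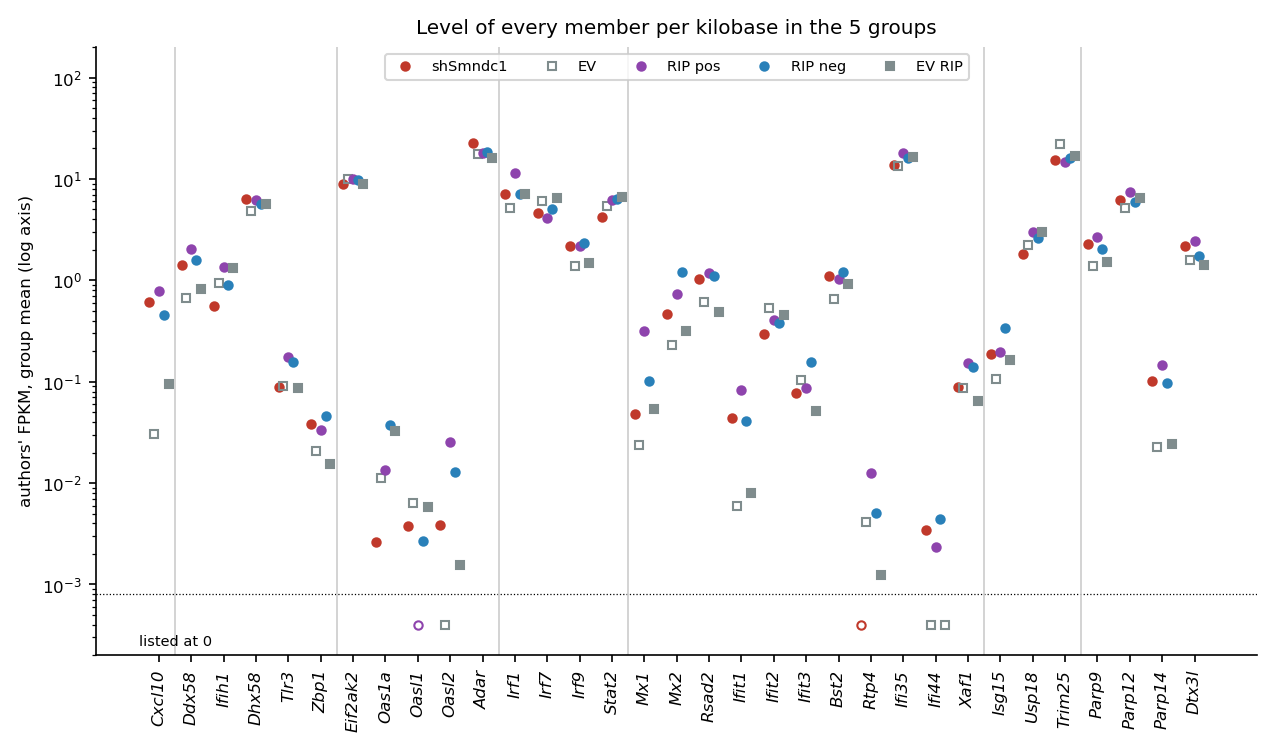
Mean FPKM of all 33 members in each group, per kilobase, on a log axis, ordered by role; open symbols under the dotted line are group means of 0. Adar, Ifi35 and Trim25 stood between 13 and 23 FPKM, while the Oas1a, Oasl1, Oasl2, Rtp4 and Ifi44 means stayed under 0.04 FPKM in every group.

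The 9 members below edgeR's count filter in both experiments were Zbp1, Oas1a, Oasl1, Oasl2, Ifit1, Ifit3, Rtp4, Ifi44 and Isg15. Several of them are textbook reporters of interferon exposure. Isg15, a ubiquitin-like protein attached to other proteins, had 0.151, 0.150 and 0.101 CPM in shSmndc1 cells, against 0.0736, 0.0583 and 0.0915 CPM in EV cells. Its groups did not overlap, but they rest on 21 counts in shSmndc1 and 10 counts in EV cells over 3 libraries each. Isg15 had 0.0842 to 0.163 CPM in reporter-positive cells and 0.154 to 0.481 CPM in the libraries labelled reporter-negative, against 0.0417 to 0.228 CPM in EV RIP cells, and these groups overlapped. Rtp4 had no count in shSmndc1 cells and 1 count in EV cells. A count of 0 in 1 shSmndc1 library allows up to 3 counts, or 0.045 to 0.076 CPM, so a change below that level was not detectable. Ifi44, Oasl1 and Oasl2 had 2, 1 and 2 counts in shSmndc1 cells and 0, 2 and 0 counts in EV cells.

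Ifit1, which binds viral RNA lacking the host cap, was below the count filter in each experiment's own fit, yet its counts were higher in the knockdown groups. Its counts summed to 17 in shSmndc1 and 2 in EV cells, and to 35 in reporter-positive and 26 in reporter-negative libraries, against 7 in EV RIP cells. Per library it had 0.0862, 0.0901 and 0.177 CPM in shSmndc1 cells, against 0.0245, 0 and 0.0229 CPM in EV cells. In reporter-positive cells it had 0.210, 0.340, 0.245 and 0.0862 CPM, against 0, 0.0490, 0.0162 and 0.0207 CPM in EV RIP cells, again with no overlap. The reporter-negative libraries, at 0.131, 0.225, 0 and 0.0794 CPM, did overlap the EV RIP cells. Ifit1 passed the test in reporter-positive cells when no count filter was used (log2 fold change 2.98, adjusted p = 0.0123, edgeR) and by DESeq2 (3.19, adjusted p = 0.00719). Its neighbour Ifit3, 52140 bases away on chromosome 19, had 23 counts in shSmndc1 and 25 counts in EV cells, and 24 counts in reporter-positive and 56 counts in reporter-negative libraries, against 29 in EV RIP cells. In reporter-negative libraries Ifit3 stood at 0.183, 0.438, 0 and 0.476 CPM, against 0.0625, 0.196, 0.0647 and 0.0414 CPM in EV RIP cells, with overlap.

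At day 5, Cxcl10 and Parp14 rose and Trim25 fell in unsorted shSmndc1 cells, and the other 20 of the 23 members tested did not pass. Across all 18202 genes tested, 7.22% were called higher and 7.5% lower (edgeR, Benjamini-Hochberg adjusted p under 0.05). With 2 members higher and 1 lower of 23, the share called higher (2 of 23) is close to the background. Cxcl10 and Parp14 reached at most 0.114 and 0.297 CPM in EV cells and passed the count filter only through shSmndc1 libraries. The median log2 fold change of the 23 members was 0.35, against -0.003 over all genes tested, with 15 members above 0 and 8 below. The members' summed level was 402 to 434 CPM in shSmndc1 cells and 406 to 425 CPM in EV cells, a sum set mainly by Adar and Trim25.

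Cxcl10, a chemokine that draws T cells through CXCR3, had 0.539, 0.781 and 1.49 CPM in shSmndc1 cells, against 0.0245, 0 and 0.114 CPM in EV cells. The groups did not overlap, and the counts behind them were 136 in shSmndc1 and 6 in EV cells. The log2 fold change was 4.30 (SE 0.79, adjusted p = 0.0136), a value that depends on edgeR's prior count because 1 EV library had no count. Cxcl10 stayed past the threshold with each library left out in turn, with fold changes from 3.67 (without EV library 2, adjusted p = 0.049) to 6.11 (without EV library 3, 0.0455).

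Parp14, a mono-ADP-ribosyltransferase that is itself induced by interferon, had 0.496, 0.645 and 1.17 CPM in shSmndc1 cells, against 0.0736, 0.136 and 0.297 CPM in EV cells. It rose by 2.15 on the log2 scale (SE 0.55, adjusted p = 0.0337), without overlap. Trim25, a ubiquitin ligase that acts with RIG-I, had 95.1, 90.6 and 80.2 CPM in shSmndc1 cells, against 133, 125 and 125 CPM in EV cells. Trim25 fell by 0.53 on the log2 scale (SE 0.11, adjusted p = 0.0204), also without overlap. The Parp14 call was lost without EV library 1 (1.81, adjusted p = 0.0809), EV library 2 (2.00, 0.121), EV library 3 (2.80, 0.0719), shSmndc1 library 2 (2.27, 0.0768) or shSmndc1 library 3 (1.74, 0.0514). The Trim25 call was lost without EV library 2 (-0.54, adjusted p = 0.0671), EV library 3 (-0.55, 0.085) or shSmndc1 library 2 (-0.54, 0.0804).

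**Figure D2:**
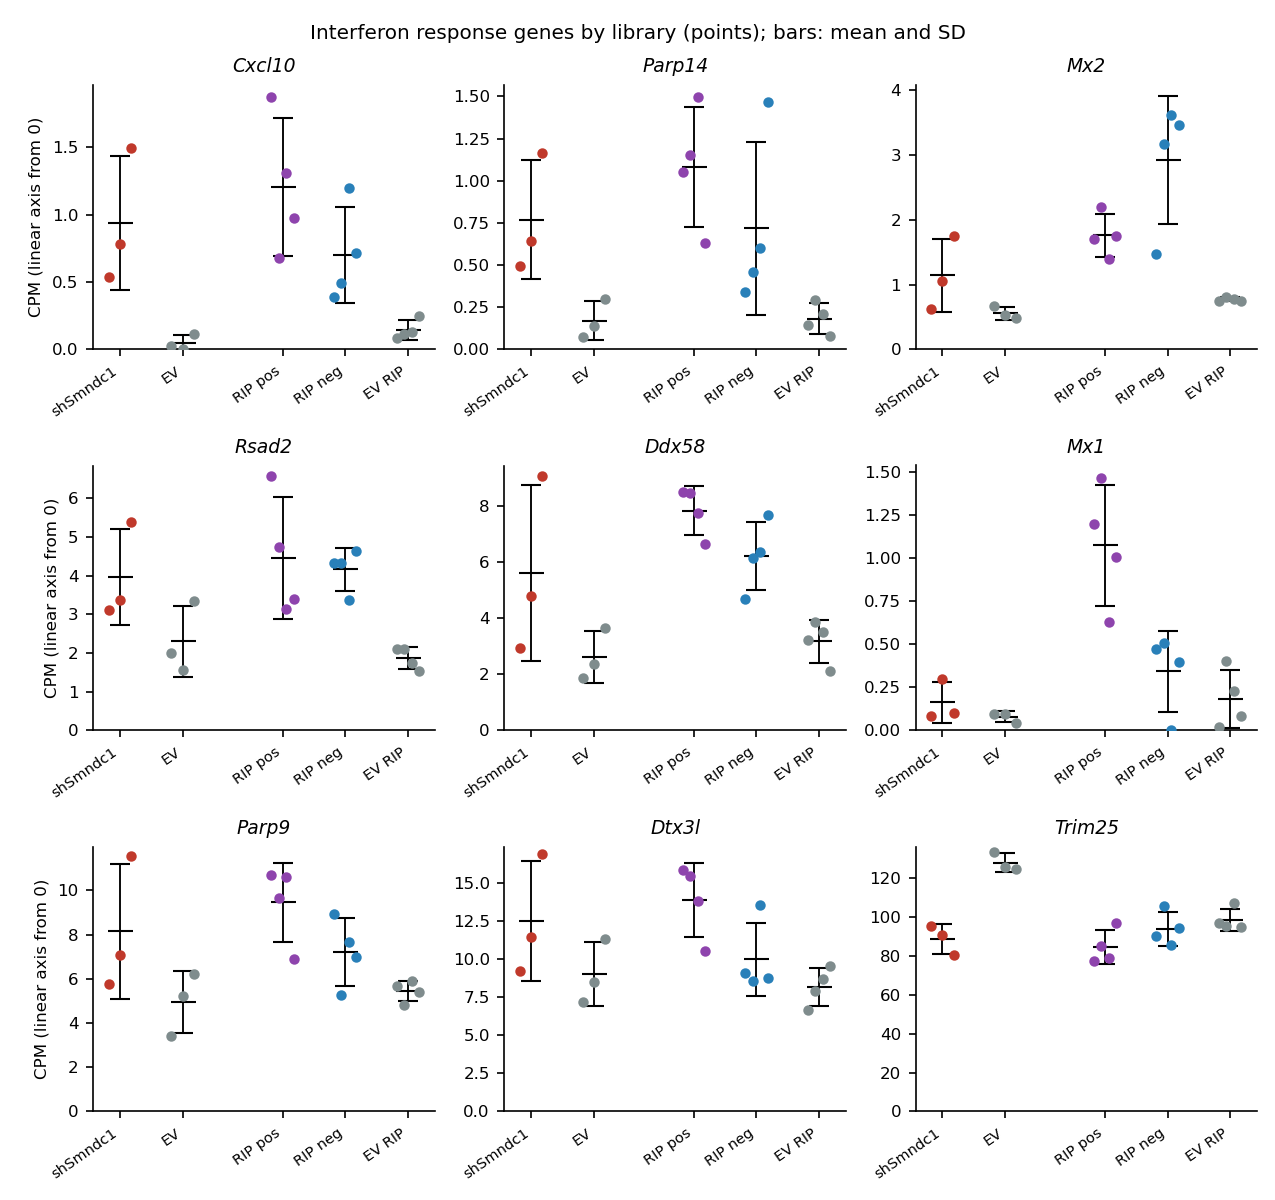
CPM of 9 members in every library, on linear axes from 0; points run by replicate number and bars give the mean and SD (n = 3 in shSmndc1 and EV, n = 4 in the others). Cxcl10 and Parp14 lay above their control in all 3 knockdown groups, Mx1 stood apart in reporter-positive cells, and Trim25 was lower in shSmndc1 than in EV cells.

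Library 3 of shSmndc1 was the highest of its group for 15 of the 23 members tested, and library 1 the lowest for 16. In the control, EV library 3 was likewise the highest of its group, for 14 of the 23. Ddx58, which encodes RIG-I, had 2.95, 4.77 and 9.07 CPM in shSmndc1 cells, against 1.87, 2.37 and 3.66 CPM in EV cells (log2 fold change 1.08, SE 0.41, adjusted p = 0.107). Mx2, a dynamin-like GTPase, had 0.625, 1.05 and 1.75 CPM in shSmndc1 cells, against 0.663, 0.525 and 0.480 CPM in EV cells (1.03, SE 0.41, adjusted p = 0.122). Both overlapped their control through shSmndc1 library 1. Library 3 of shSmndc1 had 8.82 CPM of the non-polyadenylated RNA Rn7sk and 4.76% of counts on mitochondrial genes, against 2.57 to 4.37 CPM and 2.44% to 3.2% in the other 5 libraries. The part of RNA quality in these levels was not tested. Without shSmndc1 library 3, Cxcl10 (3.82, adjusted p = 0.0145) and Trim25 (-0.46, 0.0147) still passed, and Adar (0.38, 0.025) and Stat2 (-0.51, 0.0428) passed as well.

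None of the 4 transcription factor members passed at day 5 with all libraries. Stat2 had 15.8, 18.1 and 22.5 CPM in shSmndc1 cells, against 25.4, 26.3 and 20.6 CPM in EV cells (-0.36, SE 0.17, adjusted p = 0.17). Irf7, the factor that amplifies interferon production, had 12.8, 11.7 and 8.64 CPM in shSmndc1 cells, against 13.3, 17.8 and 12.4 CPM in EV cells (-0.39, SE 0.20, adjusted p = 0.213). Irf9 and Irf1 had log2 fold changes of 0.64 (adjusted p = 0.18) and 0.48 (adjusted p = 0.19), and Irf9 passed without EV library 1 (1.10, adjusted p = 0.0198). Of these 4 factors, Irf9 and Irf1 had positive values and Stat2 and Irf7 negative ones.

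Among the remaining members of the first experiment, Rsad2, the antiviral enzyme viperin, had 3.12, 3.38 and 5.40 CPM in shSmndc1 cells, against 2.01, 1.57 and 3.34 CPM in EV cells (0.78, SE 0.34, adjusted p = 0.145). Ifit2, which shares its locus with Ifit1 and Ifit3, had the lowest fold change of the members: 1.16, 1.25 and 1.01 CPM in shSmndc1 cells, against 1.55, 2.33 and 2.24 CPM in EV cells (-0.83, SE 0.27, adjusted p = 0.0692). All 3 shSmndc1 libraries lay below the EV libraries, and the call was made by DESeq2 (-0.85, adjusted p = 0.0396) and without EV library 1 (-1.01, 0.0475). Adar, which edits adenosine in double-stranded RNA, had 135, 144 and 130 CPM in shSmndc1 cells, against 111, 105 and 105 CPM in EV cells, without overlap (0.35, SE 0.11, adjusted p = 0.0555). Of its exonic bases 16.8% are shared with Chrnb2 on the other strand, a gene with 33165 counts in these 6 libraries against 35487 for Adar, and the strand setting of the counting is not given in the sources used here. Eif2ak2, the kinase PKR, and Ifih1, the sensor MDA5, had log2 fold changes of -0.15 (adjusted p = 0.626) and -0.74 (adjusted p = 0.231). Dhx58, the RIG-I-like helicase LGP2, lay above EV in all 3 libraries without passing (0.41, adjusted p = 0.157). The other members tested, Tlr3, Bst2, Ifi35, Xaf1, Usp18, Parp9, Parp12 and Dtx3l, had log2 fold changes between -0.27 and 0.76.

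Reporter-positive knockdown cells had the most members called: 9 of 24 tested rose and none fell, where 8.47% of the 18897 genes tested were called higher and 8.92% lower. The 9 were Cxcl10, Ddx58, Rsad2, Parp14, Mx2, Parp9, Dtx3l, Mx1 and Irf1. Their median log2 fold change with the other tested members was 0.37, against 0.001 over all genes, with 19 members above 0 and 5 below. Over the alternatives run, 6 to 10 members were called higher. Cxcl10, Parp14 and Mx1 reached at most 0.248, 0.294 and 0.402 CPM in EV RIP cells. These members passed the count filter, and so could be tested, only through knockdown libraries. Rn7sk stood at 2.44 to 4.68 CPM in reporter-positive cells, against 5.24 to 14.2 CPM in EV RIP cells, without overlap. Mitochondrial genes took 3.07% to 4.6% of counts in reporter-positive cells, against 2.34% to 3.98% in EV RIP libraries 2 to 4 and 0.587% in EV RIP library 1. The part of these differences in the members' levels was not tested.

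Cxcl10 had 1.87, 0.680, 1.31 and 0.977 CPM in reporter-positive cells, against 0.0833, 0.118, 0.129 and 0.248 CPM in EV RIP cells (log2 fold change 3.07, SE 0.46, adjusted p = 0.00188). Ddx58 had 8.48, 8.44, 7.76 and 6.63 CPM, against 3.21, 3.87, 3.50 and 2.11 CPM in EV RIP cells (1.3, SE 0.21, adjusted p = 0.00266). Neither pair of groups overlapped, and the lowest reporter-positive Cxcl10 library stood above the highest control. Rsad2 had 6.59, 4.73, 3.13 and 3.39 CPM in reporter-positive cells, against 2.10, 2.10, 1.75 and 1.53 CPM in EV RIP cells (1.25, SE 0.24, adjusted p = 0.00552). Parp14 had 1.05, 1.15, 1.5 and 0.632 CPM, against 0.146, 0.294, 0.210 and 0.0828 CPM in EV RIP cells (2.49, SE 0.50, adjusted p = 0.00642). These 4 members stayed past the threshold with each library left out in turn.

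Parp9 and Dtx3l, neighbours of Parp14, also rose in reporter-positive cells. Parp14, Dtx3l and Parp9 lie within 139732 bases (chr16:35832874-35972605 on GRCm38), and DTX3L and PARP9 are known to work as a ubiquitin ligase complex. Parp9 had 10.7, 9.67, 10.6 and 6.89 CPM in reporter-positive cells, against 5.69, 4.83, 5.89 and 5.40 CPM in EV RIP cells (0.80, SE 0.19, adjusted p = 0.0141). Dtx3l had 15.9, 15.5, 13.8 and 10.5 CPM, against 6.65, 7.88, 8.71 and 9.58 CPM in EV RIP cells (0.76, SE 0.19, adjusted p = 0.0153). Both were above control in 4 of 4 libraries. Dtx3l and Parp9 overlap on opposite strands in 458 exonic bases, 8.0% of Dtx3l and 9.4% of Parp9, so part of their reads may be shared. Of the other genes tested at this locus, Gm15564 fell (-1.45, adjusted p = 0.00655), and Hspbap1 (0.07, 0.8) and Kpna1 (0.30, 0.0829) were not called. Parp12, on chromosome 6, did not pass (0.17, SE 0.12, adjusted p = 0.355).

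Mx1 and Mx2, dynamin-like GTPases whose genes lie 72401 bases apart, both rose in reporter-positive cells. Mx1 had 1.20, 1.46, 0.626 and 1.01 CPM in reporter-positive cells, against 0.0208, 0.402, 0.227 and 0.0828 CPM in EV RIP cells (2.43, SE 0.61, adjusted p = 0.0179). Mx2 had 1.70, 2.20, 1.39 and 1.75 CPM, against 0.750, 0.814, 0.777 and 0.745 CPM in EV RIP cells (1.19, SE 0.28, adjusted p = 0.0137). The 4 EV RIP libraries of Mx2 lay within 0.07 CPM of each other. Without reporter-positive library 2, Mx1 (2.26, adjusted p = 0.0577), Mx2 (1.07, 0.0516) and Dtx3l (0.72, 0.0511) lost their calls. Without EV RIP library 2, the Mx1 value was 3.21 (adjusted p = 0.00813).

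Irf1, a factor induced by interferons and through NF-kB, was the ninth member called in reporter-positive cells and is described after its values were seen. It had 48.8, 36.0, 39.1 and 27.9 CPM in reporter-positive cells, against 24.0, 30.2, 22.5 and 18 CPM in EV RIP cells (0.68, SE 0.18, adjusted p = 0.021). Reporter-positive library 4 lay below EV RIP library 2, so the groups overlapped. The call was lost without EV RIP library 3 (0.66, adjusted p = 0.0548), EV RIP library 4 (0.57, 0.0518) or reporter-positive library 1 (0.53, 0.0505).

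Members with the opposite tendency in reporter-positive cells were few. Irf7 had 9.87, 10.3, 10.9 and 8.70 CPM, against 11.9, 11.9, 13.8 and 24.5 CPM in EV RIP cells, without overlap (-0.64, SE 0.24, adjusted p = 0.0765). Without EV RIP library 4 the value was -0.33 (adjusted p = 0.255). Stat2 had 21.3, 29.6, 25.6 and 32.6 CPM, against 20.6, 33.0, 30.3 and 35 CPM in EV RIP cells (-0.12, SE 0.19, adjusted p = 0.672). Usp18, which removes ISG15 and blocks IFNAR signalling, had -0.04 (adjusted p = 0.94). Xaf1, an inhibitor of XIAP, lay above control in 4 of 4 libraries without passing (1.21, SE 0.42, adjusted p = 0.0608). The remaining tested members, from Trim25 at -0.22 to Tlr3 at 0.96, did not pass either.

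**Figure D3:**
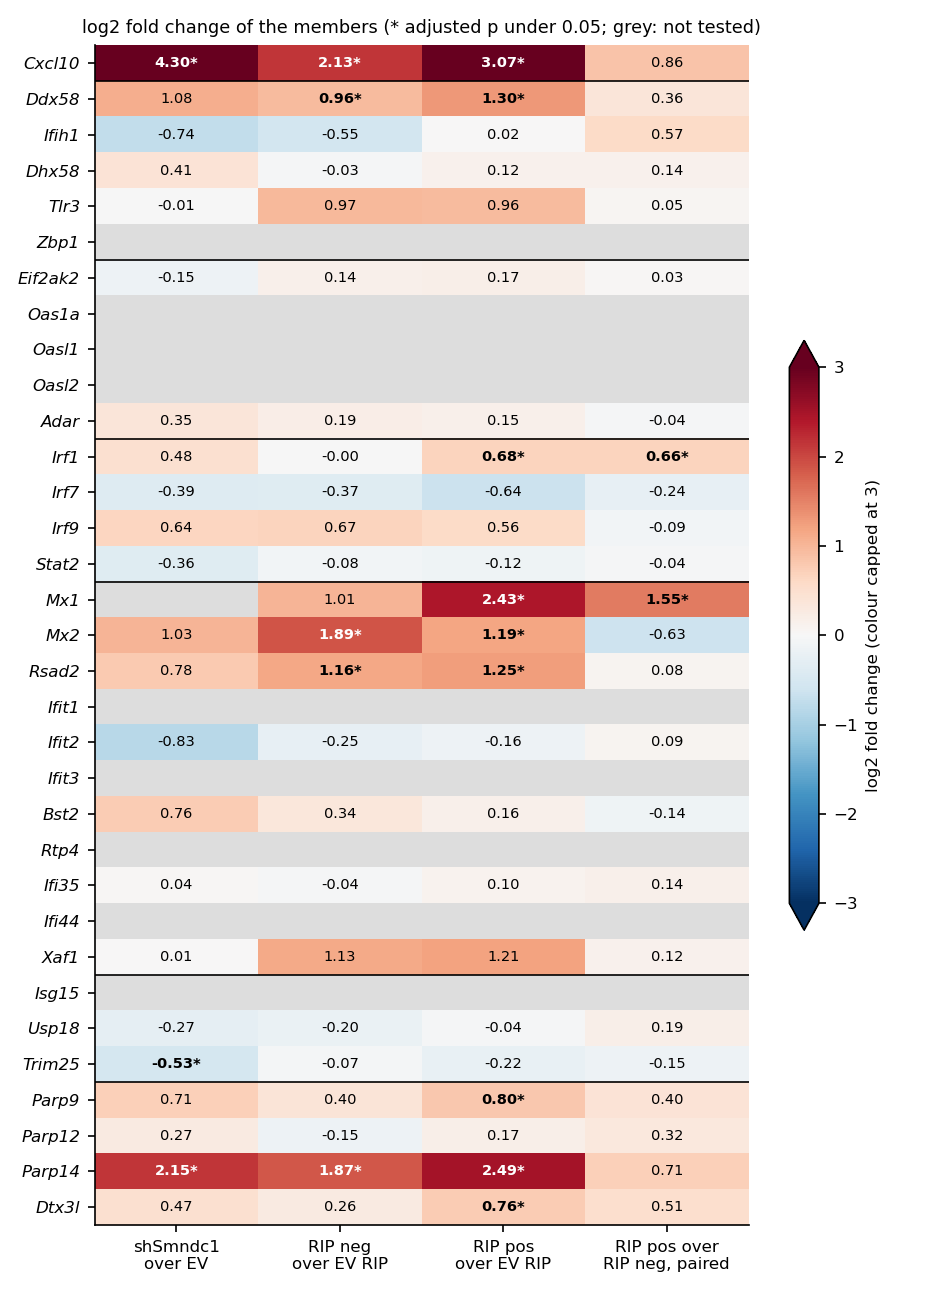
Log2 fold changes of all 33 members, grouped by role, in 4 comparisons; asterisks mark adjusted p under 0.05, grey marks members not tested, and the last column is the fit paired by replicate number. Cxcl10 and Parp14 were called against the control in all 3 knockdown groups, and 9 members were called in reporter-positive cells.

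In the libraries labelled reporter-negative, in which Smndc1 itself was not called lower, 5 of 24 members were called higher and 0 lower, where 8.17% of genes were called higher and 5.69% lower. The 5 were Mx2, Rsad2, Ddx58, Cxcl10 and Parp14, all of them also called in reporter-positive cells against the same EV RIP libraries. Of these, Cxcl10 and Parp14 passed the count filter only through knockdown libraries. The median over the 24 was 0.23, against -0.01 over all genes, with 14 members above 0 and 10 below.

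Mx2 had 1.46, 3.16, 3.60 and 3.45 CPM in the libraries labelled reporter-negative, against 0.750, 0.814, 0.777 and 0.745 CPM in EV RIP cells (1.89, SE 0.29, adjusted p = 0.00707). Rsad2 had 4.31, 4.32, 3.36 and 4.64 CPM, against 2.10, 2.10, 1.75 and 1.53 CPM in EV RIP cells (1.16, SE 0.25, adjusted p = 0.0142). Ddx58 had 4.68, 6.13, 6.37 and 7.66 CPM, against 3.21, 3.87, 3.50 and 2.11 CPM in EV RIP cells (0.96, SE 0.21, adjusted p = 0.0157). None of these groups overlapped its control. Cxcl10 had 0.392, 0.497, 1.20 and 0.714 CPM, against 0.0833, 0.118, 0.129 and 0.248 CPM in EV RIP cells (2.14, SE 0.48, adjusted p = 0.0166). Parp14 had 0.340, 0.462, 0.601 and 1.47 CPM, against 0.146, 0.294, 0.210 and 0.0828 CPM in EV RIP cells (1.87, SE 0.51, adjusted p = 0.0304), with library 4 far above the rest. Ifih1 had the lowest fold change, with 6.83, 4.95, 3.12 and 4.88 CPM against 7.31, 8.74, 8.32 and 5.07 CPM in EV RIP cells (-0.55, SE 0.28, adjusted p = 0.19). Stat2 and Irf7 had -0.08 (adjusted p = 0.802) and -0.37 (adjusted p = 0.298).

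All 5 calls were lost without reporter-negative libraries 3 and 4. Library 3 held 8084600 counts and library 4 held 23744000 counts, where the other libraries of the series held 34045000 to 103050000. Rn7sk stood at 161 CPM in library 3 and 45.4 CPM in library 4, against 4.52 and 18.6 CPM in libraries 1 and 2 and 5.24 to 14.2 CPM in EV RIP cells. Without both libraries, 0 members were called, with 4 genes called higher and 0 lower over all genes, and 7 members and 2870 genes at an unadjusted p under 0.05. The fold changes were then 1.58 for Mx2 (adjusted p = 0.137), 1.20 for Rsad2 (0.166), 0.76 for Ddx58 (0.226), 1.63 for Cxcl10 (0.208) and 1.07 for Parp14 (0.344). Without library 4 alone, Mx2 was the only member called, and Rsad2 (1.11, adjusted p = 0.0584), Ddx58 (0.83, 0.0695), Cxcl10 (2.06, 0.0636) and Parp14 (1.20, 0.155) were not. Ddx58 was also lost without library 2 (0.97, adjusted p = 0.0512) and Cxcl10 without EV RIP library 1 (1.98, 0.053). Parp14 was lost as well without EV RIP library 1, 3 or 4 (1.78, 1.92 and 1.64, adjusted p = 0.0813, 0.064 and 0.0592) or reporter-negative library 2 or 3 (2.08 and 1.90, adjusted p = 0.0576 and 0.0549). Without library 1, 26 members were tested and 9 were called higher, the 4 added ones being Ifit1, Ifit3, Irf9 and Xaf1. Ifit1 and Ifit3, with 7 and 29 counts in EV RIP cells, passed the count filter only in that refit and through knockdown libraries. Xaf1 had at most 0.210 CPM in EV RIP cells. In that refit 11 members and 8151 of 19615 genes had an unadjusted p under 0.05, against 7 members and 6275 of 18897 genes with all libraries (edgeR).

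Some markers of other cell types were higher in the knockdown groups, and others were not. The sum of 5 endothelial markers was 2.33 to 5.89 CPM in the libraries labelled reporter-negative and 1.52 to 3.79 CPM in reporter-positive cells, against 1.13 to 1.91 CPM in EV RIP cells. Of the 2 endothelial markers tested, Pecam1 and Esam both rose in reporter-negative libraries (1.61, adjusted p = 0.0219, and 3.02, adjusted p = 0.0164), while Cdh5 stood at 0.0397 CPM or less there. Esam also rose in reporter-positive cells (2.17, adjusted p = 0.0381) and at day 5 (2.21, adjusted p = 0.0319). The other endothelial marker tested was called in neither (0.64 in reporter-positive cells and -0.48 at day 5). At day 5 the endothelial sum was 1.44 to 2 CPM in shSmndc1 and 1.03 to 1.78 CPM in EV cells. The 6 fibroblast markers summed to 7.01 to 11.4 CPM in reporter-positive and 3.33 to 7.09 CPM in reporter-negative libraries, against 2.9 to 9.48 CPM in EV RIP cells. Of the 2 fibroblast markers tested, Col1a1 rose in reporter-positive cells (2.09, adjusted p = 0.0156) and in reporter-negative libraries (1.71, 0.0455). The other was not called (0.34 in reporter-positive cells and -0.55 in reporter-negative libraries), and neither was called at day 5. The 14 leukocyte markers summed to 36.3 to 47.5 CPM in reporter-negative libraries and 38.7 to 46.1 CPM in reporter-positive cells, against 41.4 to 54.0 CPM in EV RIP cells. Of the 7 leukocyte markers tested, Cd68 rose and C1qa fell in reporter-negative libraries and C1qa fell in reporter-positive cells. Ptprc, the defining leukocyte gene, had 0.0523, 0.0473, 0.481 and 0.0794 CPM in reporter-negative libraries, against 0.0208, 0, 0 and 0 CPM in EV RIP cells. Each reporter-negative library thus lay above every EV RIP library, on few counts. In 3 of 4 reporter-positive libraries Ptprc was at 0. In the first experiment the leukocyte sum was 32.5 to 36.9 CPM in shSmndc1 and 34.2 to 44.4 CPM in EV cells, with Ptprc at 0 in all 3 shSmndc1 libraries, 1 of 7 markers tested higher (Csf1r) and 2 lower. The part of these markers in the members' levels was not tested.

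Reporter-positive and reporter-negative libraries with the same number deviated together, so the sorted populations were also compared within pairs. Reporter-negative library 2 and reporter-positive library 4 deviated together as well (r = 0.371), so the number is not shown to mark 1 sorted culture. Without pairing, 0 of 24 members and 0 of 18897 genes passed in either direction (0% higher and 0% lower, edgeR), with 6 members and 2314 genes at an unadjusted p under 0.05; DESeq2 called 1 member, Irf1. With the number as a block in all 12 libraries, again no member passed (Irf1 0.66, adjusted p = 0.0992; Mx1 1.5, adjusted p = 0.216), with 6 members at an unadjusted p under 0.05. In a fit of the 8 sorted libraries alone with the same block, added after the data were seen, Irf1 and Mx1 were higher in reporter-positive cells and no member was lower, where 3.71% of 17994 genes were called higher and 4.72% lower. The paired values below are from that fit.

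Mx1 had 1.20, 1.46, 0.626 and 1.01 CPM in reporter-positive libraries 1 to 4, against 0.471, 0.509, 0 and 0.397 CPM in the reporter-negative libraries of the same number. It was higher in 4 of 4 pairs (paired log2 fold change 1.55, SE 0.37, adjusted p = 0.0212; unpaired 1.42, adjusted p = 0.374). The reporter-negative library without a count is the shallow one, where 0 counts allow up to 0.36 CPM. Irf1 had 48.8, 36.0, 39.1 and 27.9 CPM in reporter-positive libraries, against 22.9, 23.8, 20.5 and 27.2 CPM in reporter-negative ones (paired 0.66, SE 0.14, adjusted p = 0.0128; unpaired 0.68, adjusted p = 0.172). It was higher in 4 of 4 pairs, with nearly equal values in pair 4. Without pair 1 or pair 2 neither passed (Irf1 0.51 and 0.68, adjusted p = 0.0636 and 0.0659; Mx1 1.67 and 1.59, adjusted p = 0.0615 and 0.159), and without pair 4 Mx1 did not (1.63, adjusted p = 0.0524). The counts over all genes fell to 90 higher and 182 lower without pair 2, against 667 and 850 with all pairs.

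Within the pairs Mx2 gave a difference of the opposite sign to Mx1, which did not pass. Mx2 was lower in reporter-positive than in reporter-negative libraries in 3 of 4 pairs (paired -0.63, SE 0.25, adjusted p = 0.139; unpaired -0.71, adjusted p = 0.342). Without reporter-negative library 1 the unpaired difference passed (-0.93, adjusted p = 0.0463). Dtx3l was higher in 4 of 4 pairs (0.51, SE 0.15, adjusted p = 0.0516) and passed without pair 3 (0.66, adjusted p = 0.022). Cxcl10, Parp14 and Rsad2 had paired differences of 0.86 (adjusted p = 0.165), 0.71 (0.334) and 0.08 (0.851). Parp14 passed without pair 4 (1.43, adjusted p = 0.0477) and stood at 0.41 to 0.59 without another pair, and Cxcl10 stood at 0.36 without pair 1. Ifih1 had a paired difference of 0.57 (adjusted p = 0.131) and passed without pair 1 (0.94, adjusted p = 0.0115).

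**Figure D4:**
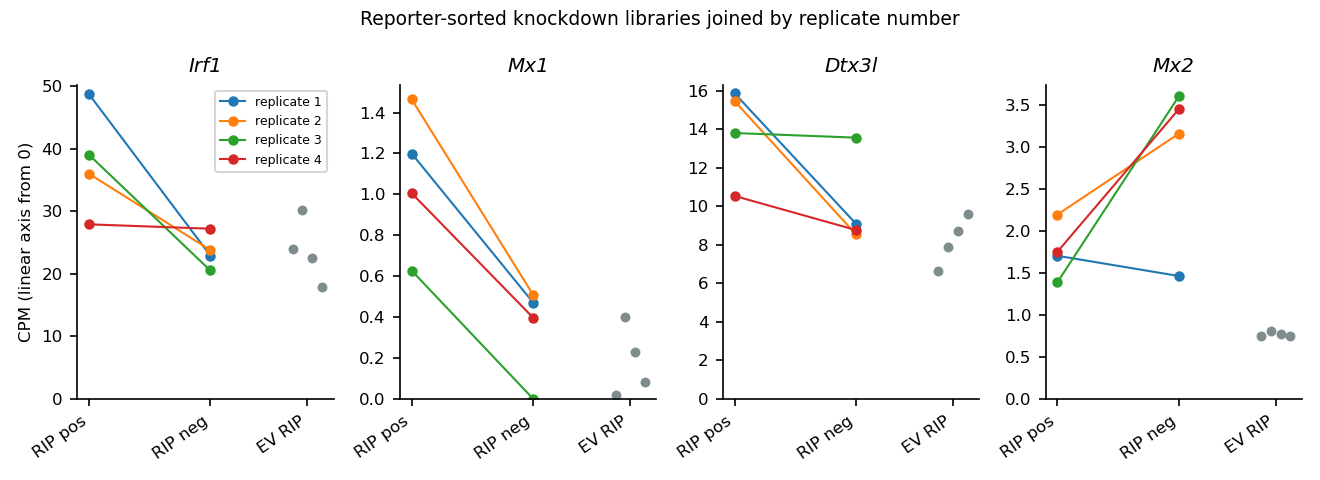
CPM of Irf1, Mx1, Dtx3l and Mx2 in reporter-positive and reporter-negative libraries joined by replicate number, with the 4 EV RIP libraries as grey points, on linear axes from 0. Irf1 and Mx1 fell along every line toward the reporter-negative side, whereas Mx2 ran the other way in 3 of 4 pairs.

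Whether the day-5 response differed from that of reporter-positive cells was tested as a difference of effects over both experiments. None of 26 members and none of 20036 genes passed (0% higher and 0% lower, edgeR), with 0 members and 861 genes at an unadjusted p under 0.05. Cxcl10 had the largest positive difference (1.24, SE 0.92) and Mx1 the most negative one (-1.37, SE 1.06), with standard errors close to the differences themselves. Trim25 had the smallest p of the members (-0.30, SE 0.15, unadjusted p = 0.0629). These standard errors leave differences of either sign possible, so similar responses are not shown.

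The genes that make interferon were almost without counts. None of the 21 interferon ligand genes listed passed the count filter in either experiment. Ifnb1 had 1 count in 18 libraries, in a reporter-negative one. Ifnab, another of the listed ligand genes, had 2, 9 and 15 counts in shSmndc1 cells against 5, 0 and 0 in EV cells. In the second experiment it had 1, 14, 0 and 6 counts in reporter-positive and 0, 30, 0 and 19 counts in reporter-negative libraries, against 1, 3, 1 and 1 in EV RIP cells. Its counts were thus uneven between libraries of 1 group, and the 0 in reporter-negative library 3 allows up to 0.36 CPM at that library's depth. Of 9 receptor and kinase genes, 8 were tested. Ifnar1 (0.49, SE 0.13, adjusted p = 0.0344) and Ifngr1 (0.50, SE 0.13, adjusted p = 0.0399) rose at day 5 and Il10rb fell (-1.11, SE 0.20, adjusted p = 0.0126). Il10rb, the shared receptor chain for interleukin-10 and interferon lambda, also fell in reporter-positive (-1.33, adjusted p = 0.00293) and reporter-negative libraries (-0.76, adjusted p = 0.0371), with 1 gene of this list rising in the reporter-negative ones (Ifngr2) and 1 more falling in reporter-positive cells (Tyk2).

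NF-kB targets were called higher in each comparison with a control, where 7.22% of all genes were at day 5, 8.47% in reporter-positive cells and 8.17% in reporter-negative libraries. The unpaired comparison of the sorted groups and the difference of effects gave no call for any gene. Calls in the same comparisons as Cxcl10 therefore do not link these targets to it. Of 13 listed, 5 were tested at day 5 and 3 rose: Icam1, an adhesion molecule (4.47, SE 0.89, adjusted p = 0.0167), Nfkbia, the NF-kB inhibitor (1.76, SE 0.42, adjusted p = 0.0272), and Tnfaip3, the feedback inhibitor A20 (1.51, SE 0.40, adjusted p = 0.0374). Nfkbia had 19.5, 22.2 and 65.0 CPM in shSmndc1 cells, against 11.9, 10.2 and 9.44 CPM in EV cells, again highest in shSmndc1 library 3. In the second experiment 6 were tested, of which 4 rose in reporter-positive cells and 5 in reporter-negative libraries, and none fell. Nfkbia had 28.7, 23.6, 37.9 and 23.2 CPM in reporter-positive and 13.4, 22.6, 49.4 and 44.8 CPM in reporter-negative libraries, against 10.8, 11.4, 10.5 and 12.7 CPM in EV RIP cells. Icam1 reached 6.02 CPM in reporter-positive library 1 and 0.373 CPM in library 4, against at most 0.0883 CPM in EV RIP cells (5.44, SE 0.90, adjusted p = 0.00281). In both experiments Icam1 passed the count filter only through knockdown libraries. Nfkb1 itself rose in all 3 (1.07, 0.58 and 0.39 in shSmndc1, reporter-positive and reporter-negative cells; adjusted p = 0.0149, 0.00549 and 0.0353). The day-5 count was 1 without EV library 1 and 0 without EV library 2 or 3. The reporter-negative count was 3 without EV RIP library 1 or 3 or reporter-negative library 2, 1 without library 4 and 0 without libraries 3 and 4. In reporter-positive cells 3 to 5 of these targets were called with each library left out in turn.

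**Figure D5:**
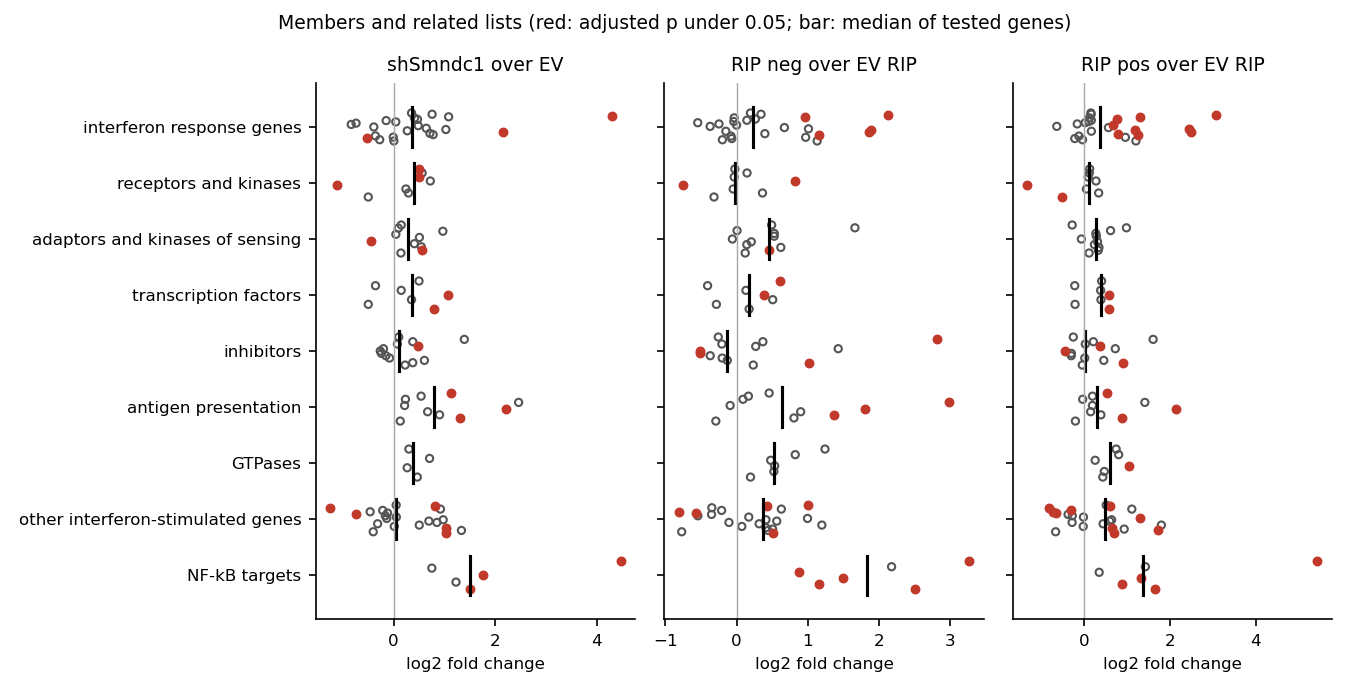
Log2 fold changes of tested members and of 8 related gene lists in the 3 comparisons with an empty-vector control; red points have adjusted p under 0.05 and black bars are medians of the tested genes. The NF-kB targets had medians of 1.51 (day 5), 1.37 (reporter-positive) and 1.84 (reporter-negative), and the interferon response genes 0.35, 0.37 and 0.23. The NF-kB medians cover only the 5 (day 5) or 6 of 13 listed targets that passed the count filter, so they do not describe the whole list.

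Genes of antigen presentation, an interferon-responsive set, had calls only toward higher levels. Of 10 listed and tested, 3 rose and none fell in each comparison with a control. Over all genes, 7.22% were called higher at day 5, 8.47% in reporter-positive cells and 8.17% in reporter-negative libraries. The shares called lower were 7.5%, 8.92% and 5.69%, so few falls among 10 genes would be found at these shares. At day 5 these were B2m (1.12, adjusted p = 0.0116), Tap2 (1.31, 0.016) and Psmb8, an immunoproteasome subunit (2.20, 0.0257). In reporter-positive cells the same 3 rose (B2m 0.52, adjusted p = 0.0291; Tap2 0.87, 0.0439; Psmb8 2.14, 0.0166), and in reporter-negative libraries Nlrc5, the activator of class I genes (2.99, 0.0101), Tap1 (1.38, 0.0178) and Psmb8 (1.81, 0.0388). Nlrc5 had only 6, 89, 35 and 11 counts in the EV RIP libraries, against 53, 447, 26 and 127 in the reporter-negative ones. The day-5 count of antigen presentation calls was 0 without EV library 2 or 3 and 5 without shSmndc1 library 1. The reporter-positive count was 0 without EV RIP library 3, and 1 without EV RIP library 1 or reporter-positive library 2, 3 or 4. The reporter-negative count was 0 without libraries 3 and 4, 1 without EV RIP library 1 or 3 or reporter-negative library 2 or 4, and 6 without EV RIP library 2 or reporter-negative library 1.

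Other interferon-stimulated genes had a few calls in each direction. Of 40 listed, 22 were tested in each experiment. At day 5, 3 rose and 2 fell, where 7.22% of all genes were called higher and 7.5% lower. In reporter-positive cells 5 rose and 4 fell (8.47% and 8.92% of all genes), and in reporter-negative libraries 3 rose and 2 fell (8.17% and 5.69%). With 22 genes tested, counts this small are descriptions. Znfx1, an RNA helicase-like sensor, rose in all 3 (1.03, adjusted p = 0.0105; 0.69, 0.00344; 0.52, 0.0179), and Isg20, an exonuclease, fell in all 3 (-0.75, adjusted p = 0.0185; -0.66, 0.00335; -0.57, 0.0129), in the order day 5, reporter-positive and reporter-negative. Herc6, the mouse ligase for ISG15, fell at day 5 (-1.25, adjusted p = 0.0134) and in reporter-positive cells (-0.82, 0.0138). Cmpk2, the neighbour of Rsad2 on chromosome 12, rose in reporter-negative libraries (1.00, SE 0.21, adjusted p = 0.0144) and did not pass in reporter-positive cells (0.51, adjusted p = 0.101) or at day 5 (0.05, 0.897). Over all 9 lists of 140 genes, 79 were tested at day 5, with 15 higher and 4 lower, where 7.22% and 7.5% of all genes were. In the second experiment 83 were tested. Of these, 17 were higher and 7 lower in reporter-positive cells (8.47% and 8.92% of all genes). In reporter-negative libraries 17 were higher and 5 lower (8.17% and 5.69% of all genes). The higher counts include NF-kB targets such as Icam1 that passed the count filter only through knockdown libraries. Of the 8 transcription factors listed beside the members, 7 were tested and 2 rose in each comparison, Nfkb1 each time with Stat3 (0.79 at day 5, adjusted p = 0.0352; 0.59 in reporter-positive cells, 0.0068) or Irf2 (0.61 in reporter-negative libraries, 0.0295). Interferon-inducible GTPases gave no call of 4 tested at day 5, 1 of 6 in reporter-positive cells (Igtp, 1.06, adjusted p = 0.0246) and none of 6 in reporter-negative libraries. The inhibitors and the adaptors of sensing had 1 or 2 calls per direction at most, with Socs3, an inhibitor of cytokine signalling, higher in reporter-positive (0.91, adjusted p = 0.0408) and reporter-negative libraries (1.02, 0.0329).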

How the data were processed

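Poly(A) RNA was sequenced as 75-base pairs in 18 libraries. The deposited raw counts per gene are the authors' own, and the submitters' processing notes list STAR 2.7.5a, Picard 2.19.2 and DESeq2 1.30.0 with builds GRCm38 and mm10; no source used here names the counting program or says whether it used strand. The authors' FPKM values, deposited beside the counts, were used only to compare levels between genes. Counts were tested with edgeR 4.0.16 in R 4.3.3 (filterByExpr, TMM, quasi-likelihood fit, Benjamini-Hochberg adjustment over all genes tested, threshold 0.05), 1 fit per experiment and 1 over all 18 libraries for the difference of effects; log2 values carry edgeR's prior count. The fit was tested on simulated data. CPM used TMM-scaled library sizes. Totals were 37233000 to 66676000 in shSmndc1, 40782000 to 53455000 in EV, 34045000 to 48139000 in reporter-positive, 8084600 to 80757000 in reporter-negative and 49345000 to 103050000 counts in EV RIP libraries, and floors of 3 counts cover counting error only. Positions come from the count tables, 54821 of 55487 of them identical in GENCODE M21. Same-numbered reporter-positive and reporter-negative libraries deviated together from their group means (r = 0.697, 0.431, 0.201 and 0.418 across genes). The number was therefore also used as a block, in all 12 libraries and, added after the data were seen, in these 8 alone. Same-numbered EV RIP libraries gave r of -0.325 to 0.571 with reporter-negative and -0.0555 to 0.492 with reporter-positive libraries, highest for number 2. Different numbers reached 0.371 (reporter-negative 2 with reporter-positive 4) and 0.434 (EV RIP 2 with reporter-negative 4). The labels do not say what a number marks. The alternatives were RLE size factors, no and a stricter filter (mean of at least 1 CPM), DESeq2 1.42.0, a replicate block, fewer libraries and each library left out.

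Members and lists were chosen with earlier results of these data known. Values are given for members passing the threshold (up to 8 per comparison in the second experiment), the highest and lowest fold changes, 7 fixed members (Cxcl10, Parp14, Mx2, Rsad2, Isg15, Stat2 and Irf7) and up to 3 genes per list. One gene of the lists is not reported here by name.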

Additional observations from a re-analysis of the deposited data

Results flagged for a closer look

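In 72 groups of 4 libraries checked (24 members in 3 groups), 3 held a library that stood apart, by Dixon's criterion at the 95% level, where about 1 in 20 groups would by chance. Dtx3l in reporter-negative library 3 stood at 13.6 CPM, against 8.55 to 9.10 CPM in the other 3 (gap 0.89 of the range); this is the shallow library. Eif2ak2 in EV RIP library 1 stood at 30.0 CPM, against 40.5 to 42.3 CPM (0.85). Irf7 in EV RIP library 4 stood at 24.5 CPM, against 11.9 to 13.8 CPM (0.842).

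Irf1 and Mx1 differed between reporter-positive and reporter-negative libraries in the 8-library fit paired by number, which was added after the data were seen, with log2 differences of 0.659 (adjusted p = 0.0128) and 1.55 (adjusted p = 0.0212) by edgeR; neither passed with the block in all 12 libraries.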

How the results depend on the processing

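At day 5, 2 members were higher and 1 lower; with no filter these were 4 and 2, with the stricter filter, which leaves out Cxcl10 and Parp14, 1 higher (Adar), with the replicate block 4 higher, by DESeq2 4 and 2, and without any 1 library 1 to 3 and 0 to 2. In reporter-negative libraries 5 were higher, 0 without libraries 3 and 4 together and 1 to 9 without any 1 library. In reporter-positive cells 9 were higher (6 to 10), and 1 was lower with no filter (Irf7, -0.69, adjusted p = 0.0324). Between the sorted groups 0 were called, 1 by DESeq2, 0 with the replicate block in 12 libraries, 2 with it in the 8 sorted libraries (added after the data were seen), and 0 to 1 lower without any 1 library. The difference of effects gave 0 throughout. Values near 0 that changed sign were Stat2 between sorted groups (0.0254 without reporter-negative 3 and 4; -0.154 to 0.0567 without 1 library) and in reporter-negative libraries (-0.211 to 0.0373), Rsad2 between sorted groups (-0.161 to 0.23), and the differences of effects of Parp14 (-0.717 to 0.331), Mx2 (-0.556 to 0.12) and Irf7 (-0.0461 to 0.441). The cause was not tested. In the comparisons with a control, the block added Ddx58 (1.00, adjusted p = 0.0241) and Parp9 (0.70, 0.0434) at day 5. It added Irf9 in reporter-negative (0.68, 0.00852) and reporter-positive libraries (0.58, 0.0146), and lost none. Over all genes, 72 to 1547 were higher and 110 to 1789 lower at day 5 without any 1 library. Nearly empty members (under about 30 counts a group) are limited by depth, most of all in reporter-negative library 3.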
